A study of Homo sapiens with 74 samples.

Results

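The carbonic anhydrase cluster of human chromosome 8 comprises CA13, CA1, CA3 and CA2, which lie next to each other with no other gene of the deposited tables between them except an antisense transcript. Its 4 genes, of the 28131 listed, were chosen on measured values: CA1 and CA3 were high in K562 cells with knockout (KO) of ENL, and CA2 and CA13 were added as their neighbours. Values of the ENL KO against its control are therefore a description of the selected genes and carry no test.

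Carbonic anhydrases are zinc enzymes that interconvert carbon dioxide and water with bicarbonate and a proton. In red blood cells this reaction lets carbon dioxide travel in the blood as bicarbonate, which leaves the cell through the anion exchanger band 3 (SLC4A1). CA1 and CA2 encode the cytosolic enzymes of red cells: CA1 is one of their most abundant proteins after haemoglobin, and CA2 is the faster catalyst. CA3 encodes a cytosolic form with low hydratase activity known from skeletal muscle and fat, and CA13 a cytosolic form found in many tissues.

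Messenger RNA was measured by RNA-seq in K562 and HEL, established human leukaemia lines with erythroid features. DOT1L methylates lysine 79 of histone H3, and ENL (gene symbol MLLT1) is a reader of acylated histones found with it in a complex. K562 was studied as wild type, as DOT1L-/- and as ENL-/-, and HEL as a control and with knockdown (KD) of DOT1L. HEL gave 2 libraries each of control and KD. K562 gave 3 libraries of either KO and 2 of the wild type, since wild-type columns 2 and 3 differed in 0 of 28131 genes and were counted as 1 sample. The labels do not say whether replicates were separate cultures or whether a knockout line was 1 clone, so p-values measure the spread between these libraries, which may be technical. Nor do they say how the controls were made. A sequencing lane is named for wild-type and DOT1L KO samples but not for the ENL KO, so that a difference of batch and the ENL KO cannot be told apart.

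Total counts were 15404944 to 29236703 per K562 library and 12151495 to 12811688 per HEL library. Counts are given as CPM, counts relative to the library total after scaling with TMM factors, and a floor of 3 counts was worth 0.103 to 0.247 CPM, for counting error only. DOT1L transcript was 0.53 lower on the log2 scale in the K562 DOT1L KO (log2 fold change -0.53, adjusted p = 4.09e-06) and 1.64 lower in the HEL KD (-1.64, adjusted p = 2.22e-28), and MLLT1 0.48 lower in the ENL KO (-0.48, adjusted p = 5.26e-06; edgeR throughout). The transcripts of the targeted genes were thus still counted, and whether the counted exons include the edited ones is not given in the sources used here. All 7 erythroid markers listed for the purpose, among them GATA1, TAL1 and KLF1, were present in every group.

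CA13 lies at chromosome 8, 85245487 to 85284073 (GRCh38, plus strand, 7 exons). CA1 follows at 85328229 to 85378154 on the minus strand, with 12 distinct listed exons. CA3 spans 85438827 to 85449038 and CA2 85463902 to 85481492, both on the plus strand with 7 exons. The gaps between consecutive genes are 44155, 60672 and 14863 bases. A single listed gene overlaps the cluster, the antisense transcript CA3-AS1 (85441806 to 85464915, minus strand), which covers 7233 bases of the CA3 span and 1014 of the CA2 span. CA3-AS1 had 0 to 2 counts in each K562 library, and 6 and 12 counts in the HEL controls against 19 and 12 in the KD. The strand setting of the counting is not given in the sources used here, so reads of CA3-AS1, CA3 and CA2 may not be fully separated, and in K562 there were hardly any of the first.

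In K562, CA1 stood at 3.30 and 3.36 CPM in the 2 controls. It reached 14.35, 15.68 and 15.53 CPM in the DOT1L KO. The ENL KO gave 44.3, 46.14 and 42.4 CPM. The 3 groups did not overlap, and the order of CA1 ran from control through DOT1L KO to ENL KO. In such bulk libraries, more cells carrying a transcript and more transcript per cell cannot be told apart. The ENL KO mean of 44.28 ± 1.87 CPM (SD, n = 3) was 13.3 times the control mean of 3.33 ± 0.04 (SD, n = 2) and 2.92 times the DOT1L KO mean of 15.19 ± 0.723 (SD, n = 3).

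CA3 was close to undetected in K562 controls, with 4 and 6 counts (0.186 and 0.284 CPM). The DOT1L KO libraries held 47, 113 and 74 counts (2.135, 3.817 and 3.503 CPM). The ENL KO libraries held 150, 179 and 139 counts (7.246, 8.712 and 9.053 CPM). CA3 thus had the same order of groups as CA1, again with no overlap. The mean of the ENL KO, 8.337 ± 0.96 CPM, was 35.5 times that of the controls, a ratio that rests on 10 counts in all on the control side.

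CA2, the fast red-cell enzyme, had another order. The K562 controls held 12 and 7 counts (0.558 and 0.331 CPM). The DOT1L KO held 24, 46 and 23 counts (1.09, 1.554 and 1.089 CPM). The ENL KO held only 1, 1 and 3 counts, at or under the floor in each library. CA2 was therefore highest in the DOT1L KO, lower in the controls and lowest in the ENL KO, with no overlap. Summed over libraries and scaled to depth, the ENL KO had 0.198 of the control level (95% exact counting interval 0.0579 to 0.549, from 5 against 19 counts) and 0.0691 of the DOT1L KO level (0.0219 to 0.167, from 5 against 93 counts). These intervals cover counting error only, not the spread between libraries, and are not read as a test.

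CA13 in the K562 controls stood at 7.904 and 6.527 CPM. It was 7.405, 8.412 and 10.03 CPM in the DOT1L KO. The ENL KO gave 1.497, 1.752 and 1.759 CPM, from 31, 36 and 27 counts. Controls and DOT1L KO overlapped for CA13, while each ENL KO library lay below both groups. The control mean of 7.215 ± 0.974 CPM was 4.32 times the ENL KO mean of 1.669 ± 0.149. The 4 genes thus split in the ENL KO into the inner pair CA1 and CA3, which were high, and the outer pair CA13 and CA2, which were low.

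**Figure D1:**
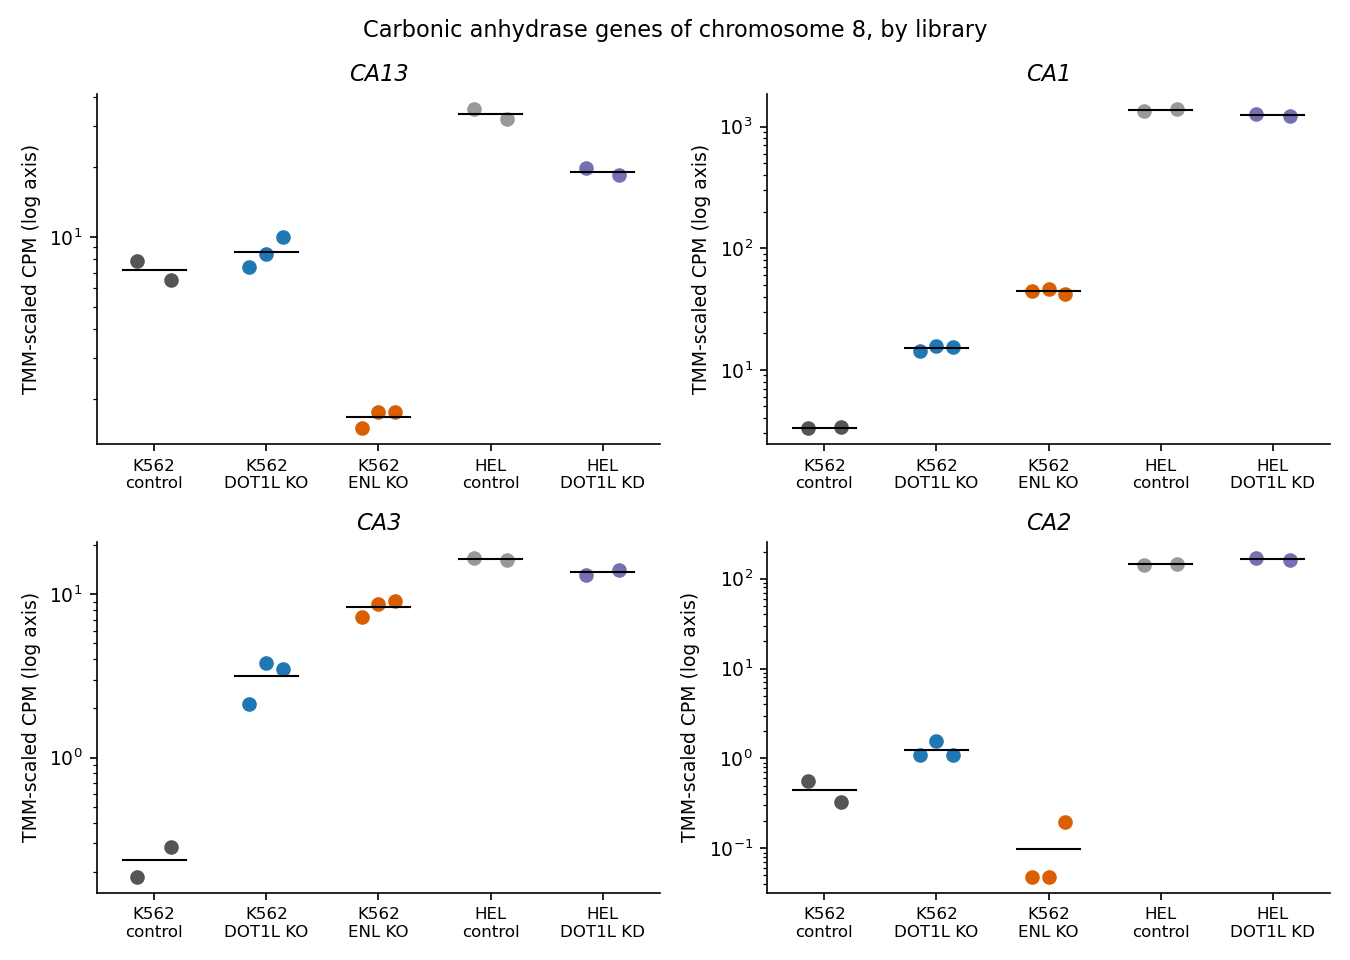
Level of each gene of the cluster in each library, in TMM-scaled CPM on log axes that differ between panels; points are libraries and bars group means. In K562, CA1 and CA3 rank control, DOT1L KO, ENL KO from low to high, while CA2 and CA13 are lowest in the ENL KO; the HEL libraries lie above all K562 libraries for each gene.

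On the scale of the fit across all genes, the ENL KO log2 fold changes were 3.73 (SE 0.107) for CA1, 5.11 (SE 0.348) for CA3, -2.11 (SE 0.188) for CA13 and -2.26 (SE 0.666) for CA2. These values chose the set. CA3 was 9th and CA1 39th from the top of 14301 genes tested, and CA2 554th and CA13 607th from the bottom. CA2 moved most with the libraries used, from -3.06 without ENL KO replicate 3 to -1.83 without control replicate 1. In that comparison 41.0% of all genes tested passed an adjusted p of 0.05 in either direction, a background from which nothing is read for the chosen genes. Set directly against the ENL KO, again as a description, the DOT1L KO was lower by log2 values of -1.54 for CA1 and -1.38 for CA3, and higher by 3.75 for CA2 and 2.37 for CA13.

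The DOT1L KO was tested against control, since the choice of genes did not use its libraries. It did use the same 2 control libraries, in which CA1 and CA3 are low, so these tests are not independent of the choice. CA1, CA2 and CA3 were higher past the threshold, CA2 and CA3 with the limits given below, and CA13 did not pass (edgeR's quasi-likelihood test, Benjamini-Hochberg adjusted over 14301 genes, threshold 0.05). The log2 fold change of CA1 was 2.19 (SE 0.112, adjusted p = 2.65e-09), a 4.56-fold ratio of mean CPM. That of CA3 was 3.73 (SE 0.397, adjusted p = 3.72e-06), a 13.4-fold ratio. CA3 passed the filter on low counts only through the knockout libraries in which it is high, none of its controls reaching the minimum of 0.47 CPM. That of CA2 was 1.49 (SE 0.386, adjusted p = 0.00543), a 2.80-fold ratio. CA2 passed the filter through 1 control and the 3 DOT1L KO libraries. With no filter the log2 fold changes were 3.71 for CA3 (adjusted p = 9.51e-15) and 1.47 for CA2 (adjusted p = 0.00229). That fit used the same controls, so the smaller adjusted p of CA3 is not read as stronger support. For CA13 it was 0.25 (SE 0.147, adjusted p = 0.171), with the groups overlapping. Each of the 3 DOT1L KO libraries lay above both controls for CA1, CA2 and CA3. The share of all genes with such a separation was not counted, so nothing is read from it.

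A rise in the DOT1L KO was common in these cells: 51.1% of all genes tested passed the threshold in either direction and 26.9% passed it with a higher level. No count over the 4 genes is read against that share, given how CA2 and CA3 passed the filter. By size of the log2 fold change, CA3 was 320th, CA1 833rd, CA2 1221st and CA13 4253rd from the top. The CA2 call was lost without control replicate 2 (log2 fold change 1.17, adjusted p = 0.0756), whereas the other alternatives of that test other than leaving out a library gave adjusted p-values of 0.000621 to 0.0222. CA13 came just past the threshold, with a log2 fold change of 0.30 (adjusted p = 0.0499, range over the alternatives to 0.366), if the identical control columns were counted as separate samples.

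HEL carried far more of these transcripts. CA1 was 1334 and 1384 CPM in the HEL controls, from 16705 and 17430 counts, and 1279 and 1220 CPM in the KD. Per kilobase of exonic length it ranked between 49th and 62nd of all genes in each HEL library, against ranks of 9819 and 9873 in the K562 controls. CA2 was 143.3 and 146.4 CPM in the HEL controls and 169.7 and 162.1 CPM in the KD. CA3 was 16.7 and 16.27 CPM in the HEL controls and 13.2 and 14.07 CPM in the KD. CA13 was 35.39 and 32.31 CPM in the HEL controls and 19.8 and 18.38 CPM in the KD. Both abundant red-cell enzymes were thus prominent HEL transcripts. The ratio of the HEL control mean to the K562 control mean was 408 for CA1, 326 for CA2, 70.2 for CA3 and 4.69 for CA13. These ratios are a description without a test, because the HEL table counts reads and the K562 table counts fragments, and the lines were grown in different media.

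After DOT1L knockdown in HEL, CA13 fell to 0.564 of its control mean and the other genes moved little. The log2 fold change of CA13 was -0.82 (SE 0.088, adjusted p = 1.66e-11, edgeR), from a mean of 33.85 ± 2.18 CPM (SD, n = 2) to 19.09 ± 1.00 CPM (SD, n = 2), and it was 519th from the bottom of 12635 genes tested. CA2 rose slightly, by 0.20 log2 units (SE 0.040, adjusted p = 4.43e-05). CA1 fell slightly, with -0.12 (SE 0.028, adjusted p = 0.00023). CA3 passed the threshold with -0.27 (SE 0.113, adjusted p = 0.0355). All 4 genes passed, where 55.0% of all genes tested did. The HEL libraries of a group lay close together, which lets small changes pass, and they may be technical replicates.

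The HEL calls of CA13 and CA2 stood under each alternative run. That of CA1 was lost with upper-quartile scaling (-0.05, adjusted p = 0.160, range over the alternatives from 0.000174) and without KD replicate 2 (-0.09, adjusted p = 0.0665). That of CA3 was lost without any one of the 4 libraries (adjusted p = 0.0554 to 0.185), and with upper-quartile scaling, library size alone or DESeq2 (adjusted p = 0.126, 0.0698 and 0.230; lowest of all alternatives 0.0318).

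The response to DOT1L depletion was compared between the lines by testing the interaction of line and depletion in 1 fit. The response in HEL was lower than that in K562 for all 4 genes (edgeR, adjusted over 15367 genes, of which 38.9% passed). The difference in log2 fold change, HEL minus K562, was -3.99 for CA3 (SE 0.406, adjusted p = 8.44e-08) and -2.29 for CA1 (SE 0.111, adjusted p = 7.49e-13). It was -1.29 for CA2 (SE 0.306, adjusted p = 0.00193) and -1.06 for CA13 (SE 0.181, adjusted p = 7.39e-05). For CA1 and CA3 the responses had opposite signs, up in K562 and slightly down in HEL, while CA2 rose in both lines by different amounts. The K562 side rests on controls with 4 and 6 counts of CA3 and 12 and 7 of CA2, and these control libraries were also used in choosing the genes. With no filter the differences were -3.99 for CA3 (adjusted p = 1.94e-09) and -1.29 for CA2 (adjusted p = 0.00196). Line, knockdown against knockout and read against fragment counting go together in this test and cannot be told apart.

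Levels of different genes are compared as CPM per kilobase of exonic length. In the K562 controls CA1 (2.204 CPM per kb) was 1.18 times CA13 (1.872), and CA2 (0.267) and CA3 (0.134) were far lower. In the DOT1L KO CA1 (10.05) led CA13 (2.235), whose libraries overlapped those of CA3 (1.80), with CA2 (0.747) last. In the ENL KO the order was CA1 (29.3), CA3 (4.761), CA13 (0.433) and CA2 (0.0585). CA1 led in each K562 group, and the second place was held by CA13 except in the ENL KO. In the HEL controls CA1 (899.4) was followed by CA2 (86.94), CA3 (9.414) and CA13 (8.78), and the KD kept that order with 826.8, 99.58, 7.788 and 4.952. Except for CA13 and CA3 in the DOT1L KO, no 2 neighbours in these orders overlapped between libraries of a group.

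The summed level of the 4 genes was 4.476 ± 0.283 CPM per kb in the K562 controls, 14.83 ± 1.33 with DOT1L KO and 34.56 ± 1.25 with ENL KO, while HEL reached 1005 ± 23.5 as control and 939.2 ± 30.4 with KD. CA1 made up 49.3% ± 3.71 of the sum in the controls, 67.9% ± 3.05 with DOT1L KO and 84.8% ± 1.77 with ENL KO. The share of CA13 was 41.7% ± 3.01, 15.1% ± 1.51 and 1.25% ± 0.101 in the same groups. The output of the cluster in the K562 controls thus came mostly from CA1 and CA13, and in the ENL KO hardly any came from CA13. CA3 held 3.03% ± 1.07, 12.0% ± 2.49 and 13.8% ± 1.54, and CA2 5.91% ± 1.78, 5.03% ± 0.878 and 0.171% ± 0.152. In the HEL controls CA1 held 89.5% ± 0.191 and CA2 8.66%, so CA1 led in HEL as in the ENL KO, followed by CA2 in HEL and by CA3 in the ENL KO.

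**Figure D2:**
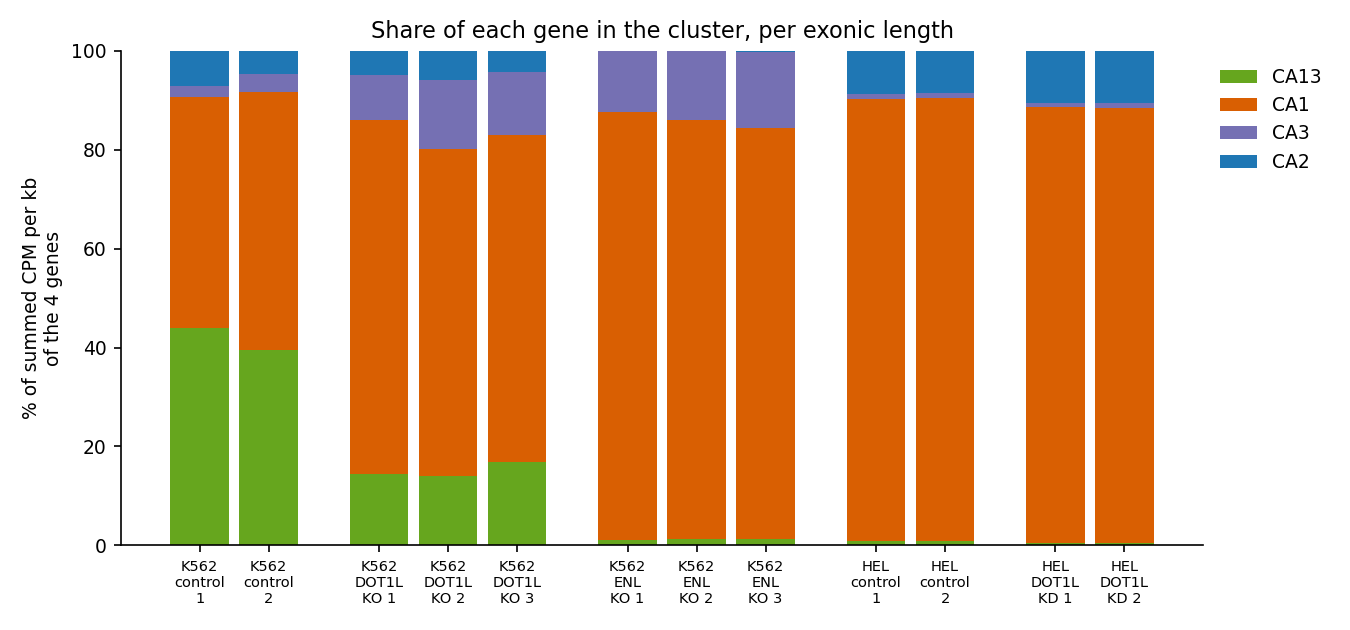
Share of each gene in the summed CPM per kb of the 4 genes, 1 bar per library, adding to 100%. CA13 takes 41.7% on average in the K562 controls and 1.25% in the ENL KO; the slice beside CA1 is mostly CA3 in the ENL KO and CA2 in HEL.

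Markers of cell types in which these enzymes are abundant were read beside the changes. The summed level of the erythroid markers was 1320 to 1420 CPM in the K562 controls, 2370 to 2480 in the DOT1L KO and 1690 to 1810 in the ENL KO. HEL had 2100 to 2110 as control and 2600 to 2650 with KD. Among the K562 groups the erythroid sum was thus highest in the DOT1L KO, where CA2 was highest, and intermediate in the ENL KO, where CA1 and CA3 were highest. The 5 megakaryocytic markers summed to 3.86 to 5.86, 24.9 to 25.6 and 10.8 to 14.5 CPM in the 3 K562 groups, and to 1550 to 1700 in HEL. The part of either lineage in the carbonic anhydrase changes was not tested.

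Of 9 skeletal muscle markers, read because CA3 is a muscle enzyme, 8 were at or under 3 counts in every control and ENL KO library, and MYOD1, MYOG and MYH2 were at 0 in all K562 libraries. The exception was DES, the intermediate filament desmin, which carried a sum of 57.2 to 59.2 CPM in controls, 27.1 to 28.8 in the DOT1L KO and 102 to 109 in the ENL KO. DES was higher in the ENL KO (log2 fold change 0.87, adjusted p = 1.43e-07, edgeR) and lower in the DOT1L KO (-1.06, adjusted p = 1.52e-08), in which CA3 was high. The 6 adipocyte markers summed to 0.837 to 0.946 CPM in the controls and 4.86 to 5.95 in the DOT1L KO. The ENL KO gave 0.58 to 0.782 CPM, and LEP and FABP4 were at 0 in all K562 libraries. LPL carried most of the DOT1L KO sum, with means of 0.821, 5.02 and 0.222 CPM in the same order of groups. LPL was higher in the DOT1L KO (log2 fold change 2.62, adjusted p = 7.46e-07), where CA3 was also high. In the ENL KO, where CA3 was highest, LPL was lower (-1.92, adjusted p = 0.00257, edgeR). Of the other adipocyte markers, not tested in K562, ADIPOQ had 0, 10 and 14 counts summed over the control, DOT1L KO and ENL KO libraries. CIDEC had 2, 4 and 13 in the same order, and PLIN1 1, 0 and 0. The 6 colon epithelium markers, read because CA1 is abundant there, summed to 14.0 to 14.1 CPM in the controls, 24.8 to 29.0 in the DOT1L KO and 7.62 to 9.18 in the ENL KO, with CDX2 and KRT20 at 0 throughout. VIL1, encoding villin, carried most of this sum, with means of 13.31, 27.1 and 7.057 CPM. MUC2, an intestinal mucin gene, had the opposite direction, with 31 counts over the controls, 5 over the DOT1L KO and 88 over the ENL KO (log2 fold change -3.30, adjusted p = 0.00171, and 1.08, adjusted p = 0.0565, edgeR). Granulocyte and monocyte markers (4) and lymphoid markers (3) each summed to at most 2.6 CPM in any library.

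The flanking genes were read beside the cluster. Of 12 listed genes within 1 Mb of the cluster, 5 passed the filter in K562, and HEL allowed 7 tests. In the ENL KO, E2F5, a cell-cycle transcription factor gene upstream of CA13, was lower (log2 fold change -0.57, SE 0.089, adjusted p = 0.00018). C8orf59 (0.28, adjusted p = 0.0218), LRRCC1 (0.23, adjusted p = 0.0467) and the ubiquitin ligase gene WWP1 (0.22, adjusted p = 0.0363) were higher. RMDN1 did not pass (0.17, adjusted p = 0.0829, all edgeR). In this comparison 4 of 5 passed, beside 41.0% of all genes. The flanking changes were at most 0.57 in size, beside 5.11, 3.73, -2.11 and -2.26 in the cluster, and their median was 0.22 against 0.00 over all genes. CA1 and CA3 were chosen for their rise in this comparison, so their larger size beside the flanking genes is not a finding. The number of calls was 1 to 4 when single libraries were left out, 2 without ENL KO replicate 2 and 1 without control replicate 1, control replicate 2 or ENL KO replicate 3, and the number was 2 with DESeq2 or upper-quartile scaling.

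In the DOT1L KO, 3 of the 5 flanking genes passed, near the 51.1% of all genes: E2F5 fell (-0.45, adjusted p = 0.000682), LRRCC1 fell (-0.22, adjusted p = 0.0464) and RMDN1 rose (0.24, adjusted p = 0.016), while C8orf59 (-0.09) and WWP1 (0.05) did not. Leaving out control replicate 1, or control replicate 2, left 1 call. In HEL, 5 of 7 passed, beside 55.0% of all genes. PSKH2, a kinase gene at 0 counts in all K562 libraries, fell from 121 and 96 counts to 19 and 28 (-2.19, SE 0.220, adjusted p = 2.67e-12). LRRCC1 (-0.48), C8orf59 (-0.35) and RMDN1 (-0.23) fell and WWP1 rose (0.22). E2F5 (-0.06, adjusted p = 0.609) and CA3-AS1 (0.79, adjusted p = 0.118) did not pass. The HEL count was 2 within 0.5 Mb.

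**Figure D3:**
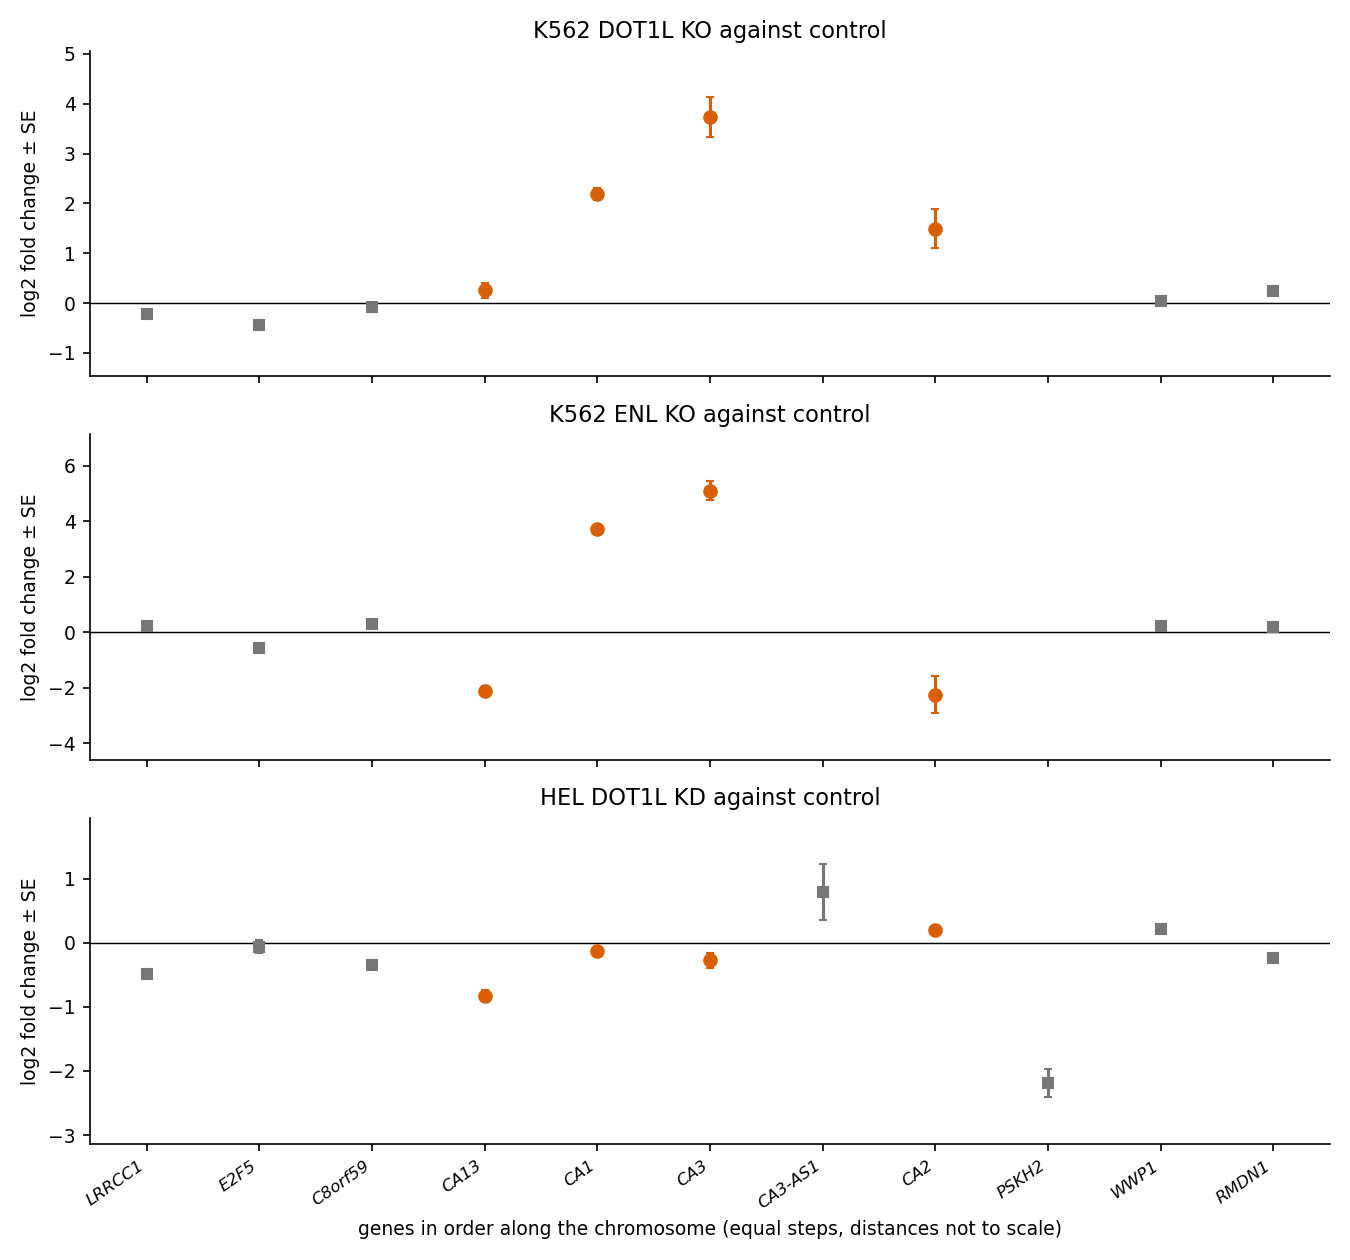
Log2 fold change (points) with its standard error (bars) of each tested gene within 1 Mb, in chromosomal order with equal steps, for the 3 comparisons with a control; orange circles are the carbonic anhydrases and grey squares their neighbours, and the vertical scales differ. In the ENL KO the carbonic anhydrases lie between -2.26 and 5.11 and their neighbours between -0.57 and 0.28. CA1 and CA3 were chosen for their rise in that comparison.

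The family outside the cluster was described from 11 genes at other loci. In K562, 6 could be tested. In the DOT1L KO, CA9, a membrane enzyme known as a hypoxia target, fell from 139 and 135 counts to 11, 4 and 3 (log2 fold change -4.66, SE 0.304, adjusted p = 2.88e-08, edgeR). CA14, another membrane enzyme, fell from 19 and 13 counts to 2 in each library, a depth-scaled ratio of 0.11 (95% exact counting interval 0.0376 to 0.267; adjusted p = 0.000161). CA8, a catalytically inactive member that is also on chromosome 8, rose (0.33, adjusted p = 0.00052). CA5B, mitochondrial, (-0.10), CA11, inactive, (0.09) and CA12, a membrane enzyme, (0.91, adjusted p = 0.0979) did not pass. The 3 calls of 6 were near the 51.1% of all genes that passed, with a median of 0.00 against 0.01 over all genes. CA14 passed the filter on low counts only through the controls, and CA12 only through the DOT1L KO libraries, in which each is high. Their directions were thus largely set by the filter.

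In the ENL KO, 4 of the 6 passed, beside 41.0% of all genes tested, and the 4 were lower. CA14 is among the 4, and it passed the filter only through the controls, in which it is high. CA8 fell from 70.2 ± 1.74 to 53.1 ± 1.61 CPM (-0.40, adjusted p = 0.000155). CA9 fell from 6.42 ± 0.0554 to 2.54 ± 0.346 CPM (-1.32, adjusted p = 0.00025). CA11 fell (-0.50, adjusted p = 0.00611), and CA14 had 2, 1 and 1 counts (ratio to control 0.0942, interval 0.0242 to 0.266; adjusted p = 0.000298). None of the 6 passed as higher, the median being -0.70 against 0.00 over all genes. The calls numbered 3 to 5 when single libraries were left out. Since CA12 and CA14 entered the 6 through the filter as described, nothing is read from the count or the median. CA5B (0.04, adjusted p = 0.903) and CA12 (-0.90, adjusted p = 0.238, edgeR) did not pass. CA4, CA5A, CA6 and CA7 were not tested in K562, with at most 10 counts in a library, and CA10 was at 0 in all libraries of both lines.

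In HEL, 4 of the 11 could be tested and these 4 passed, beside 55.0% of all genes tested. CA8 rose from 72.8 to 95.2 CPM (0.39, adjusted p = 2.52e-09) and CA11 from 5.97 to 11.0 CPM (0.88, adjusted p = 3.23e-06). CA5B fell (-1.06, adjusted p = 2.87e-05), and CA4, a membrane-anchored enzyme, fell from 20 and 17 counts to 9 and 6 (-1.27, adjusted p = 0.00904, edgeR). CA4 passed the filter on low counts (0.798 CPM in HEL) only through the controls, in which it is high, so its direction was largely set by the filter. The response of CA8 to DOT1L depletion was not shown to differ between the lines (HEL minus K562 0.08, SE 0.084, adjusted p = 0.518). CA9, CA12 and CA14 had at most 2 counts in any HEL library. The 4 genes of the cluster took 18.9% ± 1.20 of the per-length output of the 15-gene family in the K562 controls, 45.9% ± 1.96 with DOT1L KO, 73.3% ± 1.54 with ENL KO, and 98.8% ± 0.0707 in the HEL controls. In the K562 controls the leading family gene was not in the cluster: CA8 alone held 34.8% ± 0.856 and CA9 17.4% ± 0.149.

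**Figure D4:**
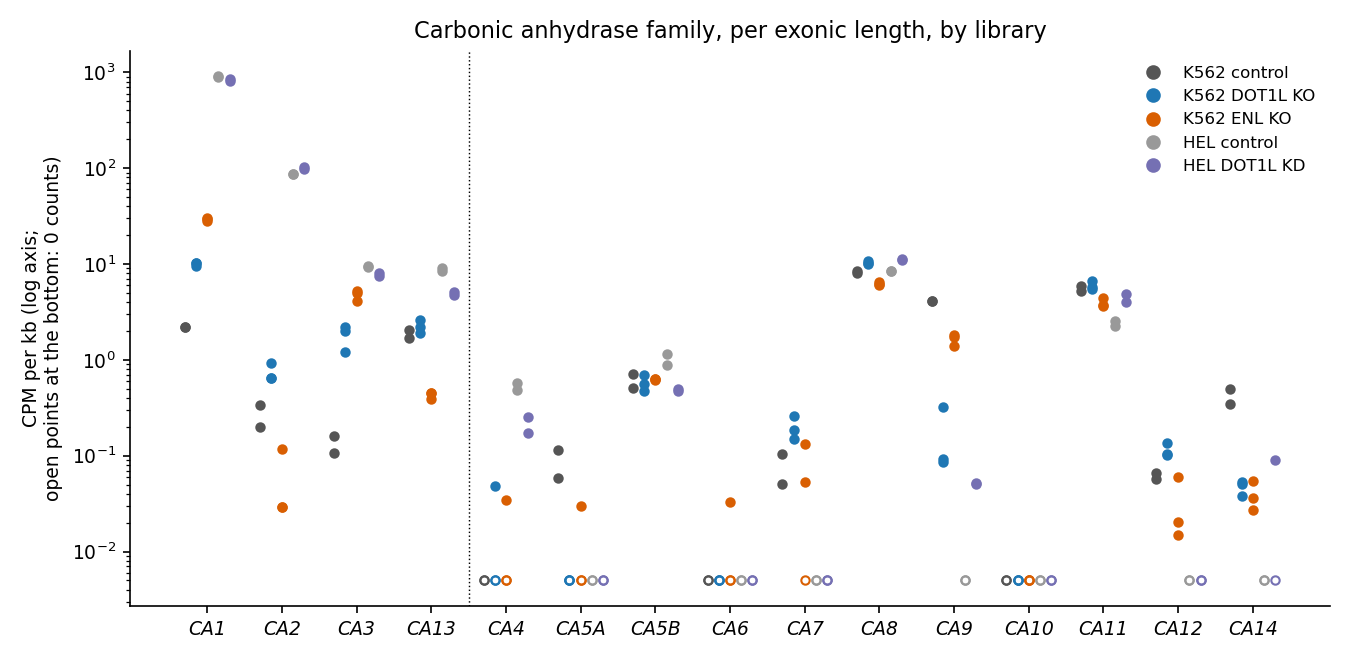
Level of the 15 carbonic anhydrase genes in each library, in CPM per kb of exonic length on a log axis; the dotted line separates the cluster from genes elsewhere, and open points mark 0 counts. Group means of CA1 run from 2.204 in the K562 controls to 899.4 in the HEL controls, and those of CA8 from 6.23 to 11.2.

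The partners that carry bicarbonate, protons, water or gas across the membrane were listed as 18 genes, among which SLC4A1 was already known to rise in these data. In the DOT1L KO, 13 were tested, 8 rose and 2 fell, with a median of 1.25, where 51.1% of all genes passed and the median was 0.01. Of the 8, SLC4A4, SLC4A5, SLC4A8 and SLC26A9 passed the filter on low counts (0.47 CPM) only through DOT1L KO libraries, in which they are high. Their direction was thus largely set by the filter, and nothing is read from the count or the median. SLC4A1, band 3 itself, went from 33.1 ± 0.231 to 206 ± 2.04 CPM (log2 fold change 2.64, adjusted p = 9.93e-12). AQP1, the red-cell water channel, went from 20.0 ± 0.191 to 109 ± 3.57 CPM (2.45, adjusted p = 2.48e-11). SLC4A7, a sodium bicarbonate cotransporter, fell (-3.08, adjusted p = 2.29e-09, edgeR). The exporter and the water channel thus rose together with CA1 and CA2. SLC26A9, an anion transporter, had 2 and 1 counts in the controls and 46, 51 and 43 in the DOT1L KO, a ratio of 27.4 (95% exact counting interval 9.17 to 134; adjusted p = 8.11e-06).

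In the ENL KO the same 13 gave 3 higher and 3 lower, near the 41.0% of all genes that passed, with a median of -0.17. SLC4A1 rose to 172 ± 9.65 CPM (2.37, adjusted p = 2.6e-11), whereas AQP1 rose to 28.8 ± 1.33 CPM only (0.52, adjusted p = 7.53e-05). RHAG, the Rh-associated gas channel, rose slightly (0.20, adjusted p = 0.0116) and SLC4A11 fell (-1.69, adjusted p = 0.000178, edgeR). Band 3 was therefore high in both knockouts, as CA1 was. Band 3 and AQP1, like CA2, were highest in the DOT1L KO, whereas CA1 was highest in the ENL KO. In HEL 13 were tested, 5 rose and 2 fell, near the 55.0% of all genes that passed, with a median of 0.19. Of the 5, SLC4A1 and SLC26A7 passed the filter on low counts (0.798 CPM in HEL) only through the KD libraries, in which they are high. Their direction was thus largely set by the filter. AQP1 rose from 19.9 to 43.7 CPM (1.13, adjusted p = 1.7e-17), SLC4A1 from 6 and 7 counts to 69 and 72 (3.43, adjusted p = 1.48e-13) and SLC26A7 from 9 and 10 counts to 20 and 23 (1.18, adjusted p = 0.00772). SLC4A7 fell (-0.56, adjusted p = 3.23e-14, edgeR). HEL thus combined very high CA1 and CA2 with a band 3 transcript near 0.518 CPM in its controls. The HEL count of 7 was 4 with DESeq2 and 4 without control replicate 1.

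The genes most like each member were those with the smallest root mean square difference between centred log2 CPM profiles over the 8 K562 libraries, among about 10240 genes of at least 5 CPM on average. CA1 was most like AHSP, the chaperone of alpha haemoglobin (0.304 log2 units), then PASD1 (0.393) and ACE, angiotensin-converting enzyme (0.444). AHSP had log2 fold changes of 1.56 with DOT1L KO and 3.14 with ENL KO, beside 2.19 and 3.73 for CA1. CA3 was most like CA1 itself (0.517), then ACE (0.581) and EPB41L4A (0.598). CA1 and CA3 were chosen for their common rise in the ENL KO, whose 3 libraries are among the 8 compared, so their nearness is not a finding. CA13 was most like STARD9 (0.118), KCNMB3 (0.142) and SYNJ2BP (0.147), each little changed in the DOT1L KO (0.18, 0.35 and 0.48) and lower in the ENL KO (-1.96, -1.82 and -1.86). CA2 was most like APOL6 (0.324), NOTCH2 (0.341) and PDE11A (0.347). The libraries share their groups and these distances carry no test. All genes named here were picked for their profiles over these same libraries, so the likeness of their fold changes is not a finding. Ranking by Pearson's r in place of the distance kept 2 of the 3 genes for CA13 and none for CA1, CA2 or CA3, and a prior count of 0.5 in place of 2 changed all 3 for CA2 alone.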

How the data were processed

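Of the 74 samples of the series, 13 RNA-seq samples of K562 and HEL were used and 61 samples of other assays were not analysed here. The libraries were dUTP libraries of polyadenylated RNA, per the labels' protocols. The authors deposited raw counts per gene, of reads for HEL and of fragments for K562, per the file headers. The submitters' processing notes name fastp 0.13.1, Bowtie2 2.3.4.1, HISAT2 2.1.0, deepTools, featureCounts 1.6.1 and the builds hg38 and hg19, with no role. Symbols of 26353 genes (93.7%) matched RefSeq of GRCh38.p14, and 99.745% of those on main chromosomes overlapped their position there.

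The members and gene lists were chosen with earlier results of these data known. Genes were filtered with filterByExpr (minimum count 10, total 15), scaled with TMM factors and tested with edgeR 4.0.16 (quasi-likelihood test) in R 4.3.3, K562 in 1 fit of 8 libraries and HEL in another of 4. P-values were Benjamini-Hochberg adjusted over all genes tested, with a threshold of 0.05, and standard errors derived from F. The fits were tested on simulated data. K562 control columns 2 and 3 were identical in all 28131 genes, whereas the chi-square of other K562 replicate pairs, divided by its degrees of freedom, was 4.05 to 9.64. In HEL this value was lower, 1.45 for the control pair and 1.31 for the KD pair, so HEL changes were tested against a narrow spread. The alternatives were DESeq2 1.42.0, other scaling factors, no filter, other sets of libraries, a replicate block, a narrower window and other measures of likeness. Named genes were the 4 members, the targeted genes, every family gene, every tested neighbour, up to 4 transport genes per comparison with the smallest adjusted p, and the 3 genes nearest each member. Marker genes named singly, such as DES, come from the marker lists and were singled out after their values were seen.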

Additional observations from a re-analysis of the deposited data

Results flagged for a closer look

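The response to DOT1L depletion differed between HEL and K562 for all 4 genes of the cluster by the interaction test of edgeR, which 38.9% of all 15367 genes tested passed. The K562 controls, which also served in choosing the genes, held 4 and 6 counts of CA3 and 12 and 7 of CA2. The difference in log2 fold change, HEL minus K562, was -2.29 for CA1, -1.29 for CA2, -3.99 for CA3 and -1.06 for CA13. Behind it stood, for CA1, 2.19 in K562 and -0.12 in HEL. For CA3 these were 3.73 and -0.27, for CA2 1.49 and 0.20, and for CA13 0.25 and -0.82. Line, knockdown against knockout, residual DOT1L transcript and read against fragment counting go together here and cannot be told apart.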

How the results depend on the processing

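Over 287 alternative values of the members' log2 fold changes none changed sign. Of these, 123 belong to comparisons given without a test. For values past the threshold, leaving out a library kept the call in 70 of 76 cases and the other settings in 68 of 72. CA13 in the DOT1L KO, not past it, crossed it in 1 of 16. CA2 in the DOT1L KO ran from 1.17 (without control replicate 2, call lost) to 1.91, and CA13 was 0.30 and past the threshold with the identical columns counted separately. In HEL, CA1 ran from -0.16 to -0.09 without single libraries and was -0.05 with upper-quartile factors. CA3 ran from -0.32 to -0.23 and was -0.20 with upper-quartile factors, -0.24 with library size alone and -0.28 with DESeq2. In each of these the CA3 call was lost, and the cause was not tested. Without single libraries, the genes called numbered 5664 to 7583 (main 7305) in the DOT1L KO, 4094 to 5872 (5863) in the ENL KO, 5884 to 6207 (6951) in HEL and 4887 to 6473 (5980) for the interaction. In HEL DESeq2 called 4561 genes, and upper-quartile factors moved the share of higher calls from 49.1% to 61.4%. Transport genes called were 7 in HEL, 4 with DESeq2 and 4 to 6 without single libraries. Neighbours called were 3 in the DOT1L KO (1 to 3 without single libraries), 4 in the ENL KO (1 to 4, and 2 with upper-quartile factors or DESeq2) and 5 in HEL (2 within 0.5 Mb). The replicate numbers did not pair the samples throughout: deviations of same-numbered K562 libraries correlated at 0.053 to 0.22. A replicate block changed no member's call, gave CA1 2.20 and CA3 3.65 in the DOT1L KO, and raised the transport genes called in the ENL KO from 6 to 10. Expressed as TPM, another unit, levels in K562 control, DOT1L KO, ENL KO, HEL control and HEL KD were 5.64, 26.1, 73.6, 2260 and 2020 for CA1, 0.683, 1.93, 0.149, 218 and 243 for CA2, 0.344, 4.67, 12, 23.6 and 19 for CA3, and 4.79, 5.8, 1.09, 22 and 12.1 for CA13. Depth limits CA2 in the ENL KO (5 counts over 3 libraries) and CA3 in the K562 controls (4 and 6 counts).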
